A study of Mus musculus with 6 samples.

Results

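The genes described here code for subunits of the proteasome and for proteins of the ubiquitin system and of muscle atrophy. They were taken from a list of 31 symbols: the alpha and beta rings of the 20S core, subunits of the 19S cap, both subunits of the 11S activator, and the ubiquitin and atrophy genes Ubb, Ube2b, Fbxo32, Trim63, Foxo1 and Foxo3. A probe set was included if the array annotation gave it exactly 1 symbol and that symbol was on the list. This found 35 of the 12422 probe sets on the array that are not controls, and they read 26 of the 31 genes, of 8251 symbols read in this way in all. Psme2, Ubb, Fbxo32, Trim63 and Foxo1 had no such probe set and were not analysed here, so the muscle ubiquitin ligases of the list are not measured and the ubiquitin and atrophy group consists of Ube2b and Foxo3.

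The proteasome is the protease that degrades proteins tagged with chains of ubiquitin. Its barrel-shaped 20S core is made of rings of alpha subunits, which gate the entrance, around rings of beta subunits, some of which carry the active sites. The 19S cap recognises the tagged protein, removes the ubiquitin and feeds the unfolded chain into the core with the force of its ATPases. In skeletal muscle this system removes contractile proteins during wasting, when FOXO transcription factors raise the ubiquitin ligases Fbxo32 (atrogin) and Trim63 (MuRF). Transcription of the subunits can rise together under the factor Nfe2l1, which binds antioxidant response elements.

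The samples were soleus, a postural muscle of mainly slow fibres, from male mice: 3 wild-type C57BL/6 and 3 BERKO, which lack estrogen receptor beta (Esr2). The labels give no strain for BERKO, no age and no form of the deleted allele. Nothing in them says that each sample was its own animal, so the p-values below measure the spread among these samples, which may be technical. Total RNA of each sample was read on 1 mouse expression array, and the question the series title names is the role of this receptor in muscle. The unit is the authors' deposited intensity, a linear brightness with no detection call.

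The arrays resembled each other (r from 0.948 to 0.966 across tested probe sets, which are not independent). Esr2 itself read 2.2, 3.2 and 1.3 on the wild-type arrays against 8.4, 3.9 and 6.2 in the knockout, too dim to check the labels, and where its probes lie relative to the deletion is not known. Markers of muscle fibres, slow-fibre genes with Ckm and Acta1 in the same list, were bright on every array. Of these 10 of 10 passed the filter on low values. Their summed intensity was 61160 to 77980 on the wild-type arrays against 77680 to 83050 in the knockout. Of 9 leukocyte markers 6 passed that filter, Cd68, Lyz2, Csf1r, Cd14, Cd74 and Laptm5. Ptprc, Adgre1 and Tyrobp did not, with readings of at most 10.4, 10.1 and 35.4. The leukocyte markers summed to 870 to 1294 on the wild-type arrays against 850.1 to 1004 in the knockout. Schwann cell markers summed to 278.4 to 381.3 and 248.8 to 307.5. Blood markers summed to 1704 to 4667 and 2087 to 2328, with Hba-a1 at 4499.9 on the array of wild-type replicate 1. Endothelial markers summed to 829.7 to 833.2 on the wild-type arrays against 731.2 to 792.5 in the knockout, and fibroblast markers to 4042 to 5166 and 4347 to 4692. The 2 fat cell markers summed to 187.3 to 325.9 and 148.9 to 172.2, so that the sums of endothelial and of fat cell markers did not overlap between groups, although the groups overlapped for each fat cell marker and for every endothelial marker but Tek. The title numbers of the samples share a prefix among 4 arrays and another among replicate 2 of both groups. What the prefix stands for is not stated, and the array of knockout replicate 2 had the lowest median, 36.8, against 39.2 to 40.55 on the others.

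Promoters are shown first, as the sequences searched for motifs that a common control of subunit genes could use. Only windows that hold a match are printed. The RefSeq table (GRCm38.p6) held 30 promoter windows for 25 of the 31 genes, each from 250 bases before to 50 after the gene start. The catalytic subunits Psmb5 and Psmb6 are shown with the antioxidant response element core in capitals, and the alpha subunit Psma3 with its CCAAT boxes in capitals (ATTGG where the box lies on the other strand). Psmb5 lies at chr14:54617946-54618245 (minus strand), Psmb6 at chr11:70525107-70525406 (plus strand) and Psma3 at chr12:70974373-70974672 (plus strand), and each is printed from 5′ to 3′.
Psmb5: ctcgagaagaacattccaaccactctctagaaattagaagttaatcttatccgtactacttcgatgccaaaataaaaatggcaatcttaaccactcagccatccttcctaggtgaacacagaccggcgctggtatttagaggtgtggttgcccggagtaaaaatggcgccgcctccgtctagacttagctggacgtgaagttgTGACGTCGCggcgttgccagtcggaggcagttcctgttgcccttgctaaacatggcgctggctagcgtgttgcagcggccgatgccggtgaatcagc
Psmb6: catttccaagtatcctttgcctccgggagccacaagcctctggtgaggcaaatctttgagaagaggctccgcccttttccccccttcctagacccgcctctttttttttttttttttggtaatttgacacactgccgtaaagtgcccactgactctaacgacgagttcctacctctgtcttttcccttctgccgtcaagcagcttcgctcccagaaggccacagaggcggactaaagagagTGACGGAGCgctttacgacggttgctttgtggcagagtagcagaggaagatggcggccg
Psma3: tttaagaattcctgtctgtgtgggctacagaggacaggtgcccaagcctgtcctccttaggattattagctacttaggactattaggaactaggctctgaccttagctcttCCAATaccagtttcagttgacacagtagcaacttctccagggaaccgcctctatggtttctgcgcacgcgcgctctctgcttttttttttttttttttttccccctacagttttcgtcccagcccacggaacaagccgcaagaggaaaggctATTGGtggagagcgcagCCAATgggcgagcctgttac
The core searched was TGACNNNGC on both strands. It starts 47 bases before the gene start in Psmb5 and 9 bases before it in Psmb6. It was present in 4 of the 30 windows, of Psmb5, Psmb6, Psmd12 and Ubb, which is 13.3%, and in 12.4% of all 32851 windows of this length. The CCAAT box (CCAAT, both strands) was present in 11 of the 30, 36.7%, and in 37.4% of all. The FOXO core (GTAAACA, both strands) was found in 1 window, that of Trim63, or 3.33% against 3.65%, and the gamma-interferon site (TTCNNNGAA) in 1, that of Ubb, or 3.33% against 8.3%. The shares of the first 3 motifs lay near those of all promoters. A match is a string of letters, not a shown binding site.

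No member differed between knockout and wild type past the adjusted threshold, and most fitted differences were small. Only probe sets brighter than 39.4 on 3 or more of the 6 arrays entered the test, 39.4 being the median of all values. Of the 26 genes 25 passed, each on all 6 arrays, so the filter did not select members by group. Where a gene had several probe sets, the brightest stands for it. At an adjusted p under 0.05 in limma 0 of 25 genes passed, against 0% of all 6369 probe sets tested, and the adjusted p of the members ran from 0.923 to 0.9995. At an unadjusted p under 0.05 there was 1 gene of 25, Psmc5, against 5.24% of all probe sets. The groups did not overlap with the knockout higher for 1 gene, Psmb6 (background 5.45%), and with the knockout lower for 1 gene, Psmc5 (background 5.23%). These counts lie near the background and are not a result about the members. In whole muscle, fewer cells of a type and less RNA per cell cannot be told apart.

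The intervals bound how far the brightest probe set of each gene could have moved. For 22 of the 25 genes the 95% interval of the difference lay within 1.5-fold either way, against 55.6% of all probe sets tested. The exceptions were Psma1, whose interval reached a ratio of 1.54, Psmd1, which reached 1.58, and Psmc5, which reached down to 0.615. Dimmer tested probe sets of genes counted as within the bound went beyond it. That of Psmb5 reached down to 0.518, and those of Psmc3 to 0.657 and 0.575. The members are bright: 17 of 25 lie in the brightest 1 of 5 equal brightness classes of the tested probe sets, 7 in the next class and 1 in the middle one. Their median spread within groups was 0.13 (SD of log2 intensity), against 0.21 over all probe sets tested and 0.15 in that brightest class, where 1117 of 1274 intervals lay within 1.5-fold. The share of groups that do not overlap also depends on brightness. In the brightest class 152 of 1274 had the knockout higher and 23 lower, and in the next class 57 and 51 of 1274.

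**Figure D1:**
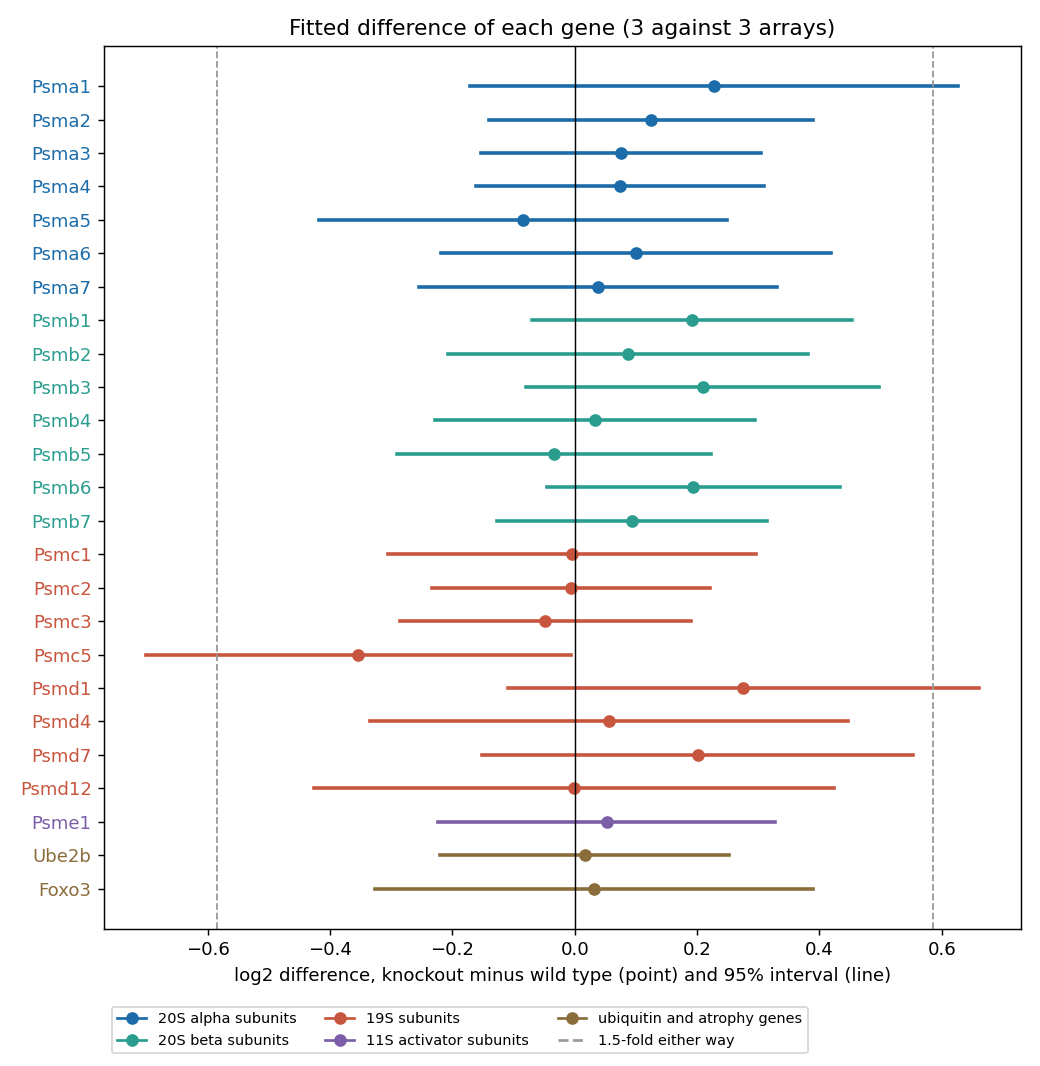
Fitted log2 difference, knockout minus wild type, of the brightest probe set of the 25 genes tested (points) with 95% intervals (lines), 3 against 3 arrays, coloured by sub-group. Dashed lines mark 1.5-fold either way, and the intervals of 22 genes lie between them.

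More members read higher than lower in the knockout, by small amounts. The fitted difference was above 0 for 18 of 25 genes, 72.0%, against 46.8% of all probe sets, with a median log2 difference of 0.056 against -0.016. In the brightest class of all probe sets 65.2% were above 0 with a median of 0.054. The count moved with the scaling and with 1 array. It was 15 of 25 after quantile normalization (50.4% of all probe sets), 23 of 25 with arrays scaled to a common median (60.9%), and 14 of 25 without knockout replicate 2 (49.1%). Of the muscle fibre markers 9 of 10, Ckm and Acta1 among them, had a higher mean in the knockout. Their part in these differences was not tested.

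The alpha subunits of the 20S core read higher in 6 of 7 genes (46.8% of all probe sets), with a median log2 difference of 0.076. Psma2, a ring subunit, read 600.6, 619.3 and 594 on the wild-type arrays against 643.2, 754.6 and 589.6 in the knockout. Psma6 read 858, 948.8 and 796.8 on the wild-type arrays against 821.5, 1142.4 and 851.3 in the knockout. In both genes knockout replicate 2 stood above the other 5 arrays, and the remaining knockout arrays lay close to wild type.

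Psma3, another subunit of the ring, also read highest in knockout replicate 2. Its intensities were 1377.9, 1238.7 and 1275.2 on the wild-type arrays against 1324.1, 1509.2 and 1275.7 in the knockout. Psma7 read 231.8, 255.7 and 216.6 on the wild-type arrays against 248.5, 258.2 and 216.7 in the knockout, groups that overlapped almost completely. Replicate 2 of the knockout was highest of the 6 arrays for these 4 alpha subunits.

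The other alpha subunits did not share that order. Psma1 read 106.1, 91.2 and 100.1 on the wild-type arrays against 147.8, 103.8 and 101.4 in the knockout, where replicate 1 alone stood high. Its log2 difference was 0.23 ± 0.18 (SE; adjusted p = 0.958), and 0.052 without that array. Psma4, whose tail helps close the gate, stayed between 450.9 and 514.9 on all arrays, and Psma5 between 179.3 and 252.8, with wild-type replicate 2 highest. Psma5 was the alpha subunit with a fitted difference below 0, at -0.084 ± 0.15 (SE). Without knockout replicate 2 the alpha median was 0.0041, with 4 of 7 genes higher (49.1% of all probe sets).

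**Figure D2:**
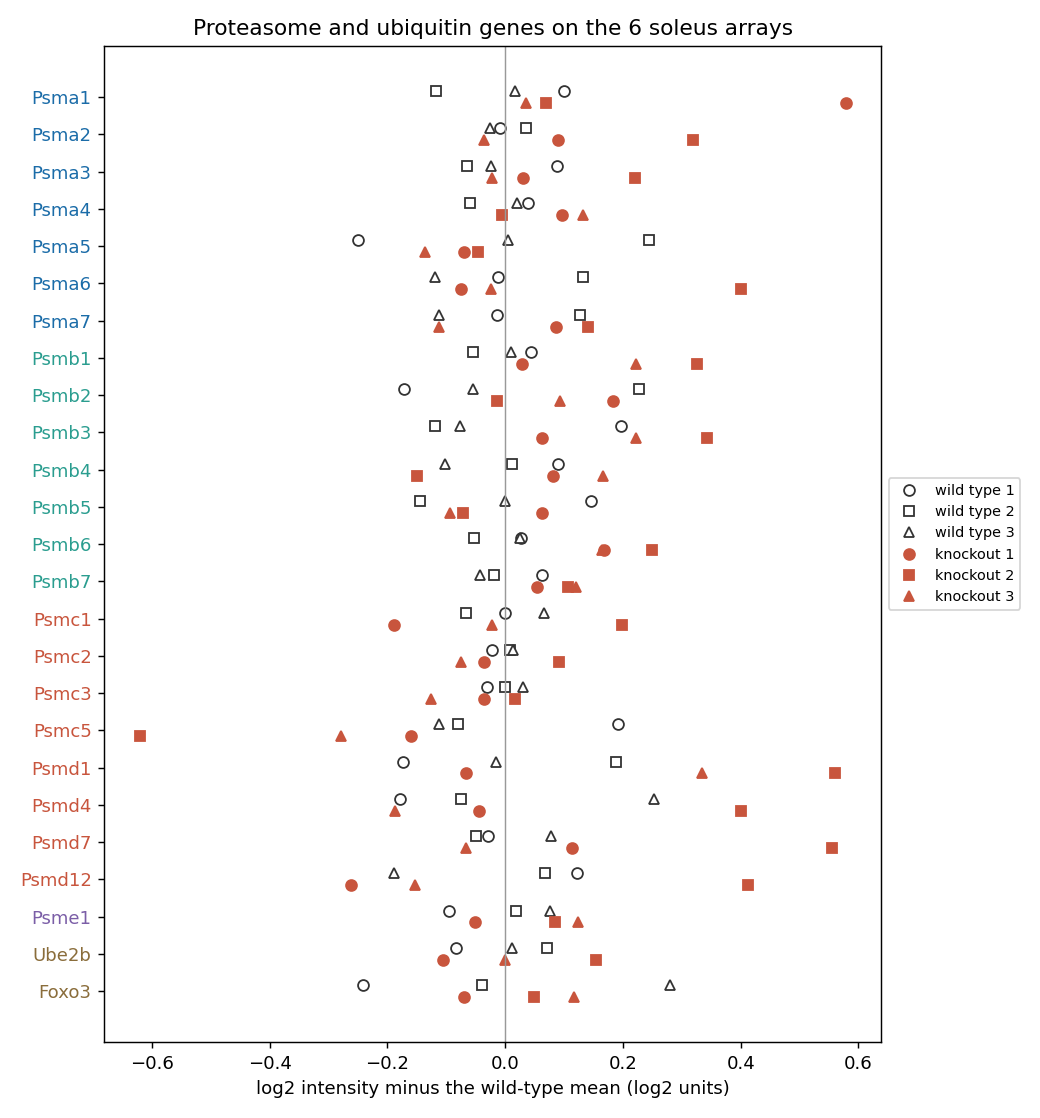
Log2 intensity of each of the 25 genes on the 6 arrays, minus the gene's wild-type mean (open symbols, wild type; filled, knockout; circle, square and triangle, replicates 1, 2 and 3). The filled square, knockout replicate 2, is the highest point for 14 of 25 genes, and the groups do not overlap for Psmb6 (knockout higher) and Psmc5 (knockout lower).

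The beta subunits read higher in 6 of 7 genes (46.8% of all probe sets), with a median log2 difference of 0.094. Psmb6, which carries the caspase-like active site, read 353.5, 334.7 and 353.4 on the wild-type arrays against 390.1, 412.4 and 388.9 in the knockout. All 3 knockout arrays stood above all 3 wild-type arrays. Its mean went from 347.2 ± 10.8 to 397.1 ± 13.2 (SD, n = 3 each), a ratio of 1.14 with a 95% interval of 0.969 to 1.35. Neither the fit (adjusted p = 0.937 in limma) nor the exact two-sided permutation test (p = 0.1, the smallest that 3 against 3 can give) passed. Over the 19 alternatives its log2 difference ran between 0.14 and 0.30. Other floors, filters and variance models left this difference as it was. Since the groups do not overlap, leaving out or weighting arrays could not change its sign.

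The other active sites lay closer to wild type. Psmb7, with the trypsin-like site, read 630.8, 596.4 and 586.7 on the wild-type arrays against 627.4, 651 and 656.7 in the knockout, so that knockout replicate 1 lay within the wild-type range. Psmb5, with the chymotrypsin-like site, read 720.8, 589.5 and 651.7 on the wild-type arrays against 681, 620.4 and 610.5 in the knockout. Its log2 difference of -0.034 ± 0.11 (SE) was the only one below 0 among the brightest probe sets of the beta subunits in that fit. The 95% intervals as ratios were 0.915 to 1.24 for Psmb7 and 0.817 to 1.17 for Psmb5.

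Among the structural beta subunits, Psmb3 and Psmb1 had the larger differences. Psmb3 read 589, 473.5 and 487.4 on the wild-type arrays against 536.9, 652.2 and 599.9 in the knockout, for a log2 difference of 0.21 ± 0.13 (SE; adjusted p = 0.958). Psmb1 read 467.1, 436 and 456.3 on the wild-type arrays against 461.9, 567.5 and 528.2 in the knockout, a difference of 0.19 ± 0.12 (SE; adjusted p = 0.958). In both, knockout replicates 2 and 3 were the highest arrays, and replicate 1 lay within the wild-type range. Psmb2 (440.9 to 581.5) and Psmb4 (706.1 to 878.9) overlapped between groups, and knockout replicate 2 was the lowest array for Psmb4.

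The beta median did not rest on knockout replicate 2. Without that array it was 0.125, with 6 of 7 genes higher (49.1% of all probe sets). Over the 4 arrays sharing a title prefix it was 0.097, and between the 2 arrays of the other prefix 0.13. After quantile normalization it was 0.065 with 5 of 7 higher (50.4% of all probe sets), and with a common median 0.16 with 7 of 7 higher. The common median also put 60.9% of all probe sets above 0, with a median of 0.051. All 7 beta genes lie in the brightest class. With the deposited scaling 65.2% of the probe sets of that class were above 0, with a median of 0.054. Taken as the median deviation of the 7 genes from their own 6-array means, the arrays read 0.015, -0.13 and -0.090 on the wild-type arrays against 0.066, 0.060 and 0.073 in the knockout. These 6 values describe the arrays and carry no test.

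**Figure D3:**
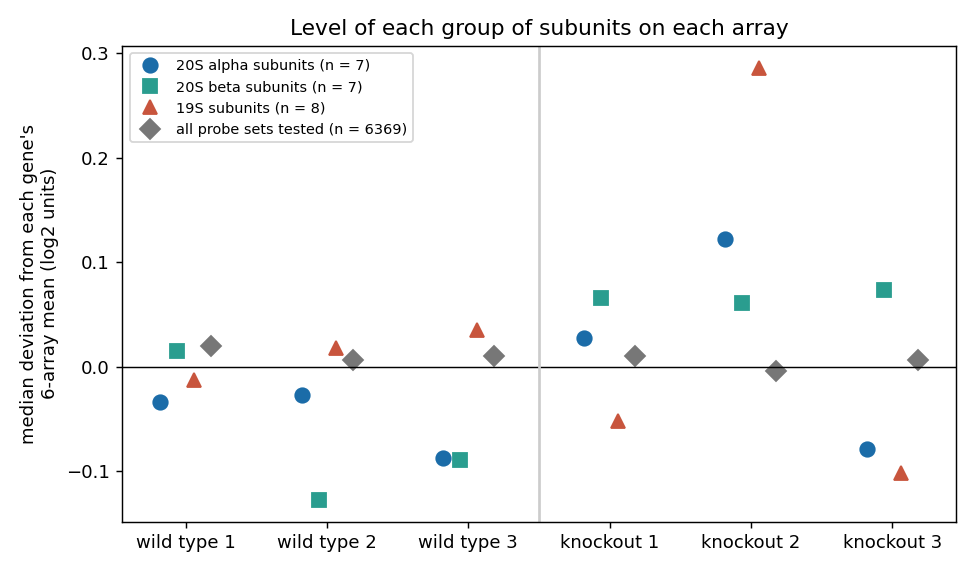
Median deviation of each group of subunits from its genes' own means over the 6 arrays, in log2 units, for 7 alpha, 7 beta and 8 cap subunits and for all 6369 probe sets tested. Knockout replicate 2 stands at 0.29 for the 19S subunits and at 0.12 for the alpha subunits, while the beta subunits lie between 0.060 and 0.073 on all 3 knockout arrays.

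The 19S cap showed no common shift: 3 of its 8 tested genes were above 0 and 5 below, with a median of -0.0028. Of all probe sets 46.8% were above 0. With a common median 7 of 8 cap genes were above 0, against 60.9% of all probe sets. It was the sub-group in which the knockout arrays differed most from each other. For 6 of the 8 genes knockout replicate 2 was the highest of the 6 arrays, where this array was highest for 18.7% of all probe sets tested. For 4 of the 8 genes knockout replicate 3 was the lowest, where it was lowest for 15.7% of all probe sets tested. The median deviations of the knockout arrays were -0.052, 0.29 and -0.10 for replicates 1, 2 and 3, against -0.013 to 0.035 in wild type.

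Replicate 2 was the highest array for each of the 4 non-ATPase subunits, Psmd1, Psmd4, Psmd7 and Psmd12. Psmd7, the partner of the cap's deubiquitinase, read 553.9, 546.5 and 596.9 on the wild-type arrays against 611.8, 830.8 and 539.8 in the knockout. Psmd4, a receptor for ubiquitin chains, read 513.5, 551.7 and 692.8 on the wild-type arrays against 563.5, 767.2 and 510.2 in the knockout. In both, knockout replicate 2 was the highest and knockout replicate 3 the lowest of the 6 arrays.

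Psmd1, the large scaffold subunit of the cap, had the highest fitted difference of all members. It read 359.3, 461.8 and 400.9 on the wild-type arrays against 387.1, 597.2 and 510.6 in the knockout, for a log2 difference of 0.28 ± 0.17 (SE; adjusted p = 0.958), and 0.13 without knockout replicate 2. Psmd12, a lid subunit, read 219.4, 211.3 and 176.9 on the wild-type arrays against 168.1, 268.3 and 181.3 in the knockout, with a difference of -0.0014 ± 0.19 (SE). Leaving out knockout replicate 2 moved Psmd12 to -0.21, Psmd4 from 0.056 to -0.12 and Psmd7 from 0.20 to 0.024.

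Within the title prefixes the medians of the cap genes had opposite signs. Over the 4 arrays sharing a prefix the median of the 8 genes was -0.11, with 1 of 8 above 0. Of all probe sets 48.1% were above 0 there, with a median of -0.011. Between the 2 arrays of the other prefix it was 0.305. The latter is 1 array against 1, with no replicate. The prefix as a block left the medians as they were, since both groups are spread over the prefixes in the same way.

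By their brightest probe sets, the tested ATPases of the cap held nearly level apart from Psmc5. The dimmer tested probe sets of Psmc3 gave lower ratios, 0.869 and 0.796. Psmc2 read 622.2, 635.6 and 637.5 on the wild-type arrays against 616.5, 673 and 599.9 in the knockout, a ratio of 0.996 with a 95% interval of 0.851 to 1.17. Psmc1 ran from 234.2 to 306.2 and Psmc3 from 382.4 to 426.1, with ratios of 0.997 and 0.967. Those groups overlapped in all 3 genes.

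Psmc5 went the other way. It read 364.3, 302 and 295.3 on the wild-type arrays against 285.5, 207.5 and 262.9 in the knockout. Every knockout array was below every wild-type array, the nearest pair being 285.5 and 295.3, and knockout replicate 2, high for most other cap genes, was the lowest here. The mean went from 320.5 ± 38.1 to 252.0 ± 40.1 (SD, n = 3 each), a ratio of 0.783 with a 95% interval of 0.615 to 0.995. The unadjusted p was 0.0466 and the adjusted p 0.923 in limma, and the adjusted p ran from 0.578 to 0.999 over the alternatives. Without knockout replicate 2 the log2 difference was -0.22 in place of -0.35. It stayed below 0 under all 19 alternatives, but other floors, filters and variance models left this difference as it was. With groups that do not overlap, leaving out or weighting arrays could not change its sign.

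Psmc4 was not tested. It read 15.5, 7.5 and 20.5 on the wild-type arrays against 26.1, 22.2 and 25.1 in the knockout, below the filter on all 6 arrays. The groups did not overlap, but all 6 readings lie where other probe sets were left out as too dim.

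Probe sets of the same gene did not always give the same difference. Of the 6 genes with several probe sets, Psmb1, Psmb5 and Psmc3 had more than 1 that was tested. The second tested probe set of Psmb1 gave -0.0091 ± 0.13 (SE) where the brightest gave 0.19. That of Psmb5 gave -0.38 ± 0.25, with readings of 125.6, 152.5 and 80.9 on the wild-type arrays against 77.5, 78.5 and 114.5 in the knockout, against -0.034. The dimmer probe sets of Psmc3 gave -0.20 ± 0.18 and -0.33 ± 0.21 against -0.048. The intervals of all these probe sets overlapped within each gene. Further probe sets of Psmb1, Psmb4, Psmc5 and Psme1 lay below the filter. Those of Psmb4 read 20.6 to 38.3 and 0.4 to 9.5, where its brightest read 706.1 to 878.9. Whether the brightest probe set of each gene reads that gene alone was not tested.

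**Figure D4:**
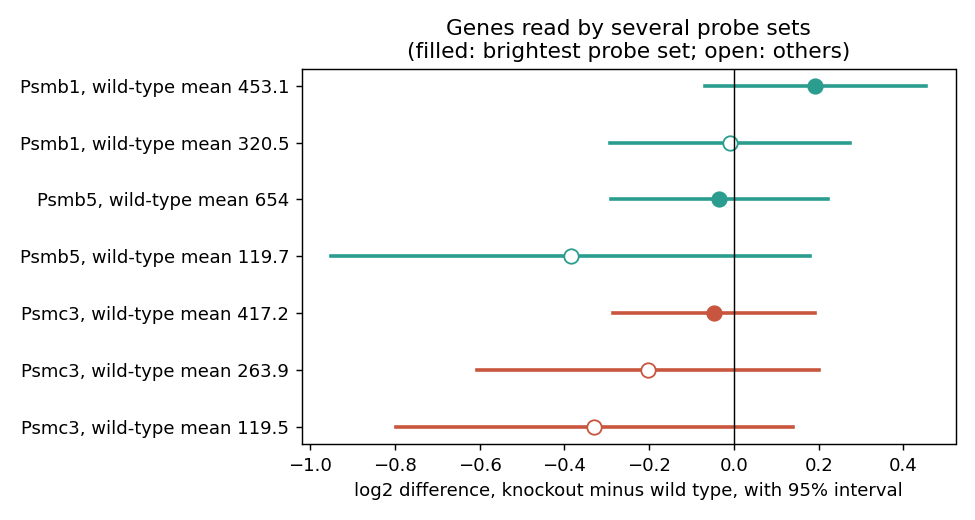
Fitted log2 difference with 95% interval for each tested probe set of Psmb1, Psmb5 and Psmc3 (filled, brightest probe set of the gene; open, others). The open points lie at or below the filled point of the same gene.

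The 11S activator was represented by Psme1, a subunit of the ring that opens the core without ubiquitin and is induced by interferon. It read 192.7, 208.4 and 216.9 on the wild-type arrays against 198.6, 218.2 and 224.1 in the knockout. The groups overlapped, at a log2 difference of 0.052 ± 0.12 (SE) and a 95% interval of 0.857 to 1.26 as a ratio. Of the subunits that replace the catalytic ones in cells exposed to interferon, Psmb10 read 138.2 to 165.4 on the wild-type arrays against 130.9 to 157.8 in the knockout. Psmb8 read 38.2 to 72.5 and 52.9 to 56.1, and Psmb9 read 6.9 to 27.5 and 8.1 to 41.9, mostly below the filter.

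Ube2b and Foxo3 were level. Ube2b, a ubiquitin-conjugating enzyme that is abundant in muscle, read 967, 1075.6 and 1032.6 on the wild-type arrays against 952.3, 1139.6 and 1024.4 in the knockout, a ratio of 1.01 with a 95% interval of 0.859 to 1.19. Foxo3, the transcription factor that raises the ligases of wasting muscle, read 127.8, 147 and 183.5 on the wild-type arrays against 144, 156.2 and 163.8 in the knockout, a ratio of 1.02 with an interval of 0.798 to 1.31. Its wild-type spread (152.8 ± 28.3; SD, n = 3) enclosed all 3 knockout values.

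Other genes of the pathway, taken from lists chosen by pathway, gave no call. Of 17 other proteasome genes tested 7 were higher and 10 lower, with a median of -0.0087, and 0 passed at an adjusted p under 0.05 or at an unadjusted p under 0.05 in limma. Those with the smallest p were the assembly chaperone Psmg2 (-0.38 ± 0.21), the cap deubiquitinase Psmd14 (0.14 ± 0.13) and the lid subunit Psmd11 (0.12 ± 0.13, all SE). Of 39 ubiquitin system genes 18 were higher and 21 lower, with a median of -0.030, and 2 had an unadjusted p under 0.05, a share near the 5.24% of all probe sets. The scaffold of a ubiquitin ligase, Cul2, read 201.5, 184.7 and 197.5 on the wild-type arrays against 113.5, 143.4 and 114.6 in the knockout, for a log2 difference of -0.66 ± 0.14 (SE; unadjusted p = 0.00105, adjusted p = 0.923). Usp5, which takes apart free ubiquitin chains, read 147.5, 174.2 and 177 on the wild-type arrays against 220.6, 211.3 and 188.3 in the knockout (0.32 ± 0.14; adjusted p = 0.923). The conjugating enzyme Ube2d2a came next, at 0.47 ± 0.22. In this list the groups did not overlap with the knockout higher for 3 genes, Usp5, Ube2d2a and Ube4b (background 5.45%), and with the knockout lower for 1, Cul2 (background 5.23%). Ube4b, a chain-extending ubiquitin ligase outside the naming rule, is named here to complete that count.

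Among 17 tested genes of muscle atrophy and its regulators 7 were higher and 10 lower, with a median of -0.052, and 0 passed the adjusted threshold. Nfe2l1, the factor that raises proteasome subunits, was the gene with an unadjusted p under 0.05 in limma (0.0312, adjusted p = 0.923). That is 1 of 17 genes, a share near the 5.24% of all probe sets. Nfe2l1 read 1213.1, 1447.9 and 1436.4 on the wild-type arrays against 1602.9, 1573.5 and 1713.9 in the knockout, for a log2 difference of 0.26 ± 0.10 (SE). In this list the groups did not overlap with the knockout higher for 1 gene, Nfe2l1 (background 5.45%). In the brightest class of all probe sets 152 of 1274 did not overlap with the knockout higher. Nfya, a subunit of the factor that binds CCAAT boxes, read 41.8 to 44.2 on the wild-type arrays against 30.0 to 34.8 in the knockout. It lay below the filter on each knockout array and entered the test only through its wild-type arrays. Its lack of overlap, with the knockout lower, was thus fixed by the filter and is not counted here. The autophagy receptor Sqstm1 gave 0.16 ± 0.13. The median of all probe sets tested was -0.016, so the medians of these 3 lists lay near it.

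**Figure D5:**
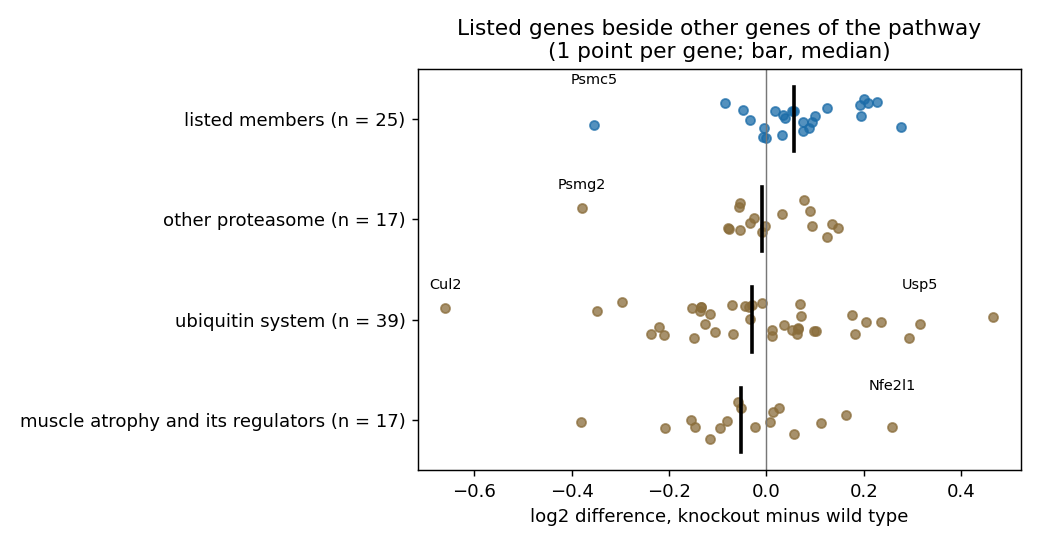
Fitted log2 difference, knockout minus wild type, of the 25 listed genes and of 17, 39 and 17 other genes of the pathway (1 point per gene; vertical spread is arbitrary; black bars, medians). The medians are 0.056, -0.0087, -0.030 and -0.052, and no gene passed the adjusted threshold.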

How the data were processed

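Total RNA from soleus of 3 wild-type and 3 BERKO males was measured on 1 array each, with groups taken from the labels. The deposited values are intensities, made by the authors with software not given in the sources used here. Trimmed by 2% at each end, every array had a mean of 100.07 to 100.08, so their common scaling was kept. Of 12488 probe sets 66 controls were left out, and 10833 of the rest carry 1 symbol. Values under 7.8, the 20th percentile, were raised to it before taking log2.

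Knockout minus wild type was fitted with limma 3.58.1 (R 4.3.3; lmFit, eBayes with an intensity trend), with two-sided p-values adjusted by Benjamini-Hochberg across the 6369 tested probe sets. Intervals are not adjusted. The steps were tested on simulated data. Precision is limited by having 3 arrays a group: the members' median SE was 0.13 (log2). Figures used matplotlib 3.10.9 in Python 3.11.15.

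The members and lists were chosen with earlier results of these data known. Every member with a probe set is named. Of the related lists, the immunoproteasome subunits, the 3 genes with the smallest p and any with an unadjusted p under 0.05 are named. No set test was run. Alternatives were other scalings, floors, filters, variance models, array weights, title prefixes, pairing by title numbers, other probe sets, and each array left out.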

Additional observations from a re-analysis of the deposited data

How the results depend on the processing

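No member probe set passed the adjusted threshold under any of the 18 alternatives with a test, and the lowest adjusted p of a member was 0.578. Among all probe sets 1 passed without the filter, 1 with a replicate block of adjacent title numbers and 0 to 1 with single arrays left out, against 0. Adjacent title numbers were not treated as pairs: deviations from the group means correlated at -0.0052, 0.035 and -0.0029 over the 3 such pairs. This paired fit gave 337 probe sets at an unadjusted p under 0.05 against 334, with Psmd1 added to Psmc5 among the members.

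The alpha and 19S medians moved beyond their spread between arrays for the 2 arrays of the other prefix (0.187 and 0.305, 1 array a group), and the beta median with a common median (0.161). With single arrays left out the beta median ran from 0.0724 to 0.15, beyond its spread only for the latter, without wild-type replicate 2. The median of all probe sets was 0.0011 after quantile normalization, 0.0512 with a common median, 0 without the filter, 0.00747 with the filter at the 70th percentile, 0.00654 for those 2 arrays, and -0.0221 to -0.00477 with arrays left out.

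Of 25 genes 9 kept their sign under every alternative: Psma1, Psma2, Psma4, Psmb3, Psmb6, Psmb7, Psmc5, Psmd1 and Psme1. Several alternatives could not change a sign. Other floors, filters and variance models, and blocks by title prefix or adjacent title numbers, left every member's fitted difference as it was. The remaining alternatives reused the same arrays, so a kept sign was not tested on independent data. The cause of each change of sign in the other genes was not tested. For the 2 arrays of the other prefix the values were Psmb2 -0.240, Psmb4 -0.162, Psmb5 0.0737, Psmc1 0.265, Psmc2 0.0825, Psmc3 0.0168, Psmd12 0.345 and the second Psmb1 probe set 0.246. Over the other 4 arrays they were Psma3 -0.0284, Psma5 0.0195, Psmd4 -0.154, Psmd7 -0.000815 and Ube2b -0.0168. A common median gave Psmb5 0.0331, Psmc1 0.0631, Psmc2 0.0611, Psmc3 0.0195, Psmd12 0.0658 and the second Psmb1 probe set 0.0582. Quantile normalization gave Psma3 -0.0190, Psmb4 -0.0375 and Ube2b -0.0200, array weights Psmd4 -0.0255, and the second probe set itself puts Psmb1 at -0.00909. With single arrays left out the ranges were -0.210 to 0.0383 for Psma5, -0.0498 to 0.188 for Psma6, -0.0179 to 0.113 for Psma7, -0.0336 to 0.124 for Psmb4, -0.107 to 0.0384 for Psmb5, -0.105 to 0.0880 for Psmc1, -0.0549 to 0.0280 for Psmc2, -0.116 to 0.183 for Psmd4, -0.208 to 0.129 for Psmd12, -0.0522 to 0.0773 for Ube2b, -0.0887 to 0.172 for Foxo3 and -0.0952 to 0.0514 for the second Psmb1 probe set. In these fits the members above 0 numbered 14 to 21 of 25, fewest without knockout replicate 2. Of all probe sets 46% to 49.1% were above 0 in them.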
